A study of Mus musculus with 12 samples.

Results

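The genes described here are the transcripts of 10 components and targets of the hypoxia-inducible factor (HIF) pathway: Hif1a, Epas1, Egln1, Egln3, Vegfa, Car9, Ndrg1, Adm, Bnip3 and Ankrd37. They were named by their known role in the pathway, with earlier results of these data known, and they are 10 of the 16411 genes in the deposited table. All 10 passed the filter on low counts and were tested among 13191 genes. The filter works on counts relative to library totals before TMM scaling. Car9 passed it through the tumors alone, since 0 benign samples reached its level, so Car9 was tested only because it is high in tumors. Ankrd37 reached the level in 3 benign samples. Levels are given as CPM, counts scaled by TMM to the size of each library.

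Libraries were made from 6 tumors and 6 pieces of benign tissue, all taken from the mammary glands of female mice of the MMTV/neu ndl-YD5 line, bred on FVB. Both groups were heterozygous for a transgene in which the MMTV promoter drives an activated form of the receptor HER2 in the mammary epithelium, so benign tissue carries it too. Benign tissue was mammary gland with no visible tumor, and its RNA came from other mice than the RNA of the tumors. The labels give no treatment and no age. The sources used here do not state which region of each tumor was taken.

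HIF is a transcription factor made of an oxygen-sensitive alpha subunit, encoded by Hif1a or Epas1, and a stable partner encoded by Arnt. Where oxygen is present, prolyl hydroxylases of the EGLN family modify the alpha subunit, and the VHL ubiquitin ligase then marks it for destruction. Where oxygen is scarce the alpha subunit persists, binds a short DNA core in target genes, and raises genes of glucose use, vessel growth, pH control and mitophagy. This control acts mainly on protein stability, so the level of Hif1a mRNA does not measure HIF activity. Egln3 is itself a target, as are the other members apart from the alpha subunits, and Egln1 is both a hydroxylase and a target.

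The binding core reads ACGTG or GCGTG, and both strands were searched in RefSeq promoter windows (GRCm38.p6) of 300 bases, from 250 before to 50 after the annotated start. The windows of Egln3, Car9 and Ankrd37, which rose in tumors, and of Bnip3, which fell, are printed with each match in capitals. They show that genes which moved in opposite directions hold the same letters.

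Egln3: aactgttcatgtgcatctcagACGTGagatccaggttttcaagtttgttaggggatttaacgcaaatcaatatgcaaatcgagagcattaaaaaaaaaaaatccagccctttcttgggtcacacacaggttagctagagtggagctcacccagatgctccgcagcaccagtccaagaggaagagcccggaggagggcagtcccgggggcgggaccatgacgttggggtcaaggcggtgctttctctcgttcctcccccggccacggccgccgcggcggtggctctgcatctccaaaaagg
Car9: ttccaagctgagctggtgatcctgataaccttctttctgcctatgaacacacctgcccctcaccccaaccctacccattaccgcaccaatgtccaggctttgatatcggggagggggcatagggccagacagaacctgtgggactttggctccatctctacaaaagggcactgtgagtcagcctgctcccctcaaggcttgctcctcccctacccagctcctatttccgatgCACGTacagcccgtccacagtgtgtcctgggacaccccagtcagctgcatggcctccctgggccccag
Ankrd37: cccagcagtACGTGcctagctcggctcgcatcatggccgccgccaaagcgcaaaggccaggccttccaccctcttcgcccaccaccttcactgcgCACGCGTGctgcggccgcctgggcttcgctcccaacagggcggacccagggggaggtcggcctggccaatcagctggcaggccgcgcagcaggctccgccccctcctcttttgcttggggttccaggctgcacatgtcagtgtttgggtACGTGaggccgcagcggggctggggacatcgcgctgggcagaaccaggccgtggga
Bnip3: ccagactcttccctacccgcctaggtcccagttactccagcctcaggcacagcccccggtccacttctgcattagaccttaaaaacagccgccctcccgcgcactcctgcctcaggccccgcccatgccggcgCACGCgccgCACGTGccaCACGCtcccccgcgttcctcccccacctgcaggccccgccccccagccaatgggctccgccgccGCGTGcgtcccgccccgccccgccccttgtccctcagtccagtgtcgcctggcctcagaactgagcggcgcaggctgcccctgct

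The Egln3 window is chr12:54203825-54204124 on the minus strand, with 1 match at position -229 from the start. The Car9 window is chr4:43506776-43507075 on the plus strand, with 1 match at position -18, read as CACGT because the core lies on the other strand. The Ankrd37 window is chr8:45999801-46000100 on the minus strand, with 4 matches at -241, -155, -152 and -6. The Bnip3 window is chr7:138909457-138909756 on the minus strand, with 5 matches at -117, -108, -107, -99 and -35. The matches at -108 and -107 overlap and together spell CACGTG, the E-box that other transcription factors also bind. A window was given for 8 of the 10 genes, 9 windows in all since Vegfa has 2, and 8 of the 9 held the core. The window without it was that of Vegfa at the upstream end of the gene (chr17:46032328-46032627, minus strand). Both Vegfa matches lay in its other window (chr17:46025114-46025413), which is inside the gene. Among all 32851 promoter windows of this length, 14380 held it, or 43.8%. A match is a run of letters and not a measured binding site.

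Total counts per sample ranged from 5240853 to 8588567. Among the benign samples, 3 stood apart: benign samples 3, 4 and 6 had summed CPM of 10 skeletal muscle markers of 44068, 29947 and 74679, against 17.4 to 319 in the other benign samples and 1.08 to 131 in the tumors. Benign samples 4 and 6 also had the highest sums of 5 brown adipocyte markers, at 2632 and 657 CPM against 26.7 to 156 in the other benign samples and 27.8 to 83.9 in the tumors. Leaving out the 3 samples removes muscle and brown fat transcripts together. Fits without them (6 tumors against 3 benign samples) are given for each of the 10 genes and each pathway list. Of 29 other genes named by rule, 26 kept their call (higher, lower or not passing) in that fit. The other 3 (Cul2, Hif1an and Ppp1r3c) are described with it. Egln2 (-0.15 to 0.08) and Bnip3l (-0.01 to 0.06) changed the sign of their log2 fold change, and passed in neither fit. Sums of several cell type markers separated the groups. The 10 endothelial markers summed to 648 to 1329 CPM in benign tissue and 85.0 to 108 CPM in tumors. The 10 white adipocyte markers summed to 9828 to 24256 and 206 to 350 CPM. The 10 epithelial markers summed to 968 to 2554 CPM in benign tissue and 2666 to 4416 CPM in tumors. Of these 10, 6 rose, 1 fell (Krt19, log2 fold change -4.74) and 3 did not pass. Sums of macrophage markers overlapped, at 400 to 956 CPM in benign tissue and 215 to 485 CPM in tumors, as did those of brown adipocyte markers. In bulk tissue, fewer cells of a type and less RNA per cell cannot be told apart. Nothing in the labels ties a sample to one animal, so p-values measure the spread between these samples.

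By the fit to all samples, 4 of the 10 genes rose in tumors (Hif1a, Egln3, Car9 and Ankrd37), 3 fell (Epas1, Egln1 and Bnip3) and 3 did not pass the threshold of adjusted p < 0.1 (Vegfa, Ndrg1 and Adm), by edgeR's quasi-likelihood test. Across all genes tested, 63.0% passed, 28.2% higher and 34.8% lower, so the count of 7 in 10 lay near the background. Car9 had to differ to be tested, and leaving it aside 3 of 9 rose. Every tumor lay above every benign sample for 2 of the 10 genes and below for 2, against 14.7% and 21.2% of all genes. Of the 2 above, Car9 entered the test through the tumors alone, which leaves Egln3. Their log2 fold changes had a median of -0.05, beside -0.06 for all genes tested. Without benign samples 3, 4 and 6, 4 genes were higher and 2 lower, the call of Egln1 being lost, beside 26.7% and 28.7% of all genes.

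**Figure D1:**
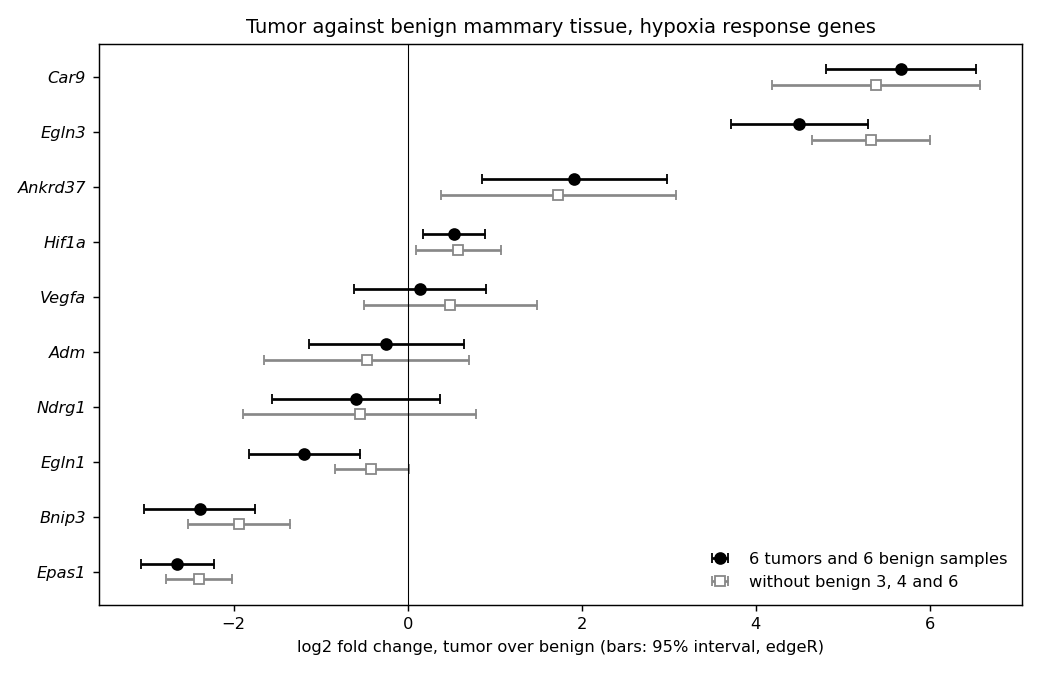
Log2 fold change of each gene, tumor over benign, with its 95% interval from edgeR (x axis), for all 12 samples (filled circles) and without benign samples 3, 4 and 6 (open squares). Car9 and Egln3 lie at 5.67 and 4.50, Epas1 and Bnip3 at -2.65 and -2.39, and the interval of Egln1 reaches 0.01 when the 3 samples are left out.

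The alpha subunits moved in opposite directions. Hif1a (GRCm38 chr12:73901375-73947530) encodes the broadly expressed subunit, and was measured at 96.9, 91.5, 113, 90.5, 104 and 95 CPM in benign samples 1 to 6 and at 121, 176, 198, 125, 141 and 90.7 CPM in tumors 1 to 6. Of the 6 tumors, 5 lay above the highest benign sample, and tumor 6 lay within the benign range. Hif1a rose from 98.5 ± 8.54 to 142 ± 39.2 CPM (mean ± SD, n = 6 per group), a log2 fold change of 0.53 (SE 0.17, edgeR adjusted p = 0.016). Without benign samples 3, 4 and 6 it was 0.58 (edgeR adjusted p = 0.0525). Exons of Hif1a overlap those of the annotated genes Gm15283 and Gm49321, and the sources do not state whether the counting used strand.

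Epas1 (chr17:86753700-86833410) encodes HIF-2 alpha, the subunit abundant in endothelial cells and also used by other cell types. Its level was 439, 415, 383, 615, 393 and 638 CPM in benign samples 1 to 6 and 74.7, 70.0, 105, 55.6, 69.2 and 85.3 CPM in tumors 1 to 6. The groups did not overlap. Epas1 fell from 481 ± 115 to 76.6 ± 16.9 CPM (n = 6 per group), 6.27-fold lower by the ratio of means, with a log2 fold change of -2.65 (SE 0.19, edgeR adjusted p = 1.7e-07). Benign samples 4 and 6, those with brown fat as well as muscle transcripts, were the highest, and without them and benign sample 3 the log2 fold change was -2.40 (edgeR adjusted p = 3.03e-06).

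All 10 endothelial markers fell as well (median log2 fold change -3.36), further than Epas1. Relative to the mean log2 CPM of these markers, Epas1 was higher in tumors, at 3.46 ± 0.26 against 2.71 ± 0.41 in benign tissue (log2, n = 6 per group, exact permutation test, two-sided, p = 0.00216, the smallest that 6 against 6 can give). The lowest tumor, at 3.14, lay just above the highest benign sample, at 3.11. The difference was 0.75, and 1.07 without benign samples 3, 4 and 6. Fewer endothelial or fat cells, and their part in the fall of Epas1, were not tested.

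The ratio of the subunits separated the groups without overlap. Hif1a minus Epas1 in log2 CPM lay between -2.76 and -1.76 in benign tissue and between 0.09 and 1.33 in tumors, a difference of 3.12 (exact permutation test, two-sided, p = 0.00216), and of 2.96 without benign samples 3, 4 and 6. Epas1 alone did not overlap between the groups, so the p of this ratio adds no support of its own. In all 3 ratios were compared, and adjustment over them left each p at 0.00216. Tumor 6, the tumor with the lowest Hif1a, was closest to the benign samples. Levels of different genes can be compared roughly per kilobase of merged exons, which counts all annotated exons and not only those of expressed isoforms. The benign means were 86.0 ± 20.6 CPM per kb for Epas1 and 16.7 ± 1.45 CPM per kb for Hif1a. In tumors Epas1 was at 13.7 ± 3.02 and Hif1a at 24.1 ± 6.64 CPM per kb, so the order turned. Their common partner Arnt was at 11.7 ± 1.83 and 12.3 ± 2.05 CPM per kb and did not pass the threshold (log2 fold change 0.07, edgeR adjusted p = 0.69).

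Among the prolyl hydroxylases, Egln3 rose more than any other member but Car9, and Egln1 fell. Egln3 (chr12:54178981-54203860) encodes PHD3, whose mRNA is strongly induced by low oxygen in many cells. It was measured at 15.6, 21.1, 64.5, 33.3, 20.4 and 42.4 CPM in benign samples 1 to 6 and at 867, 862, 971, 546, 530 and 688 CPM in tumors 1 to 6. The lowest tumor was far above the highest benign sample, benign sample 3. The means were 32.9 ± 18.4 and 744 ± 184 CPM (n = 6 per group), 22.6-fold higher in tumors, with a log2 fold change of 4.50 (SE 0.37, edgeR adjusted p = 4.2e-07). The samples with muscle transcripts held the 3 highest benign values, and without them the log2 fold change was 5.32 (edgeR adjusted p = 8.95e-07).

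Egln1 (chr8:124908587-124949324) encodes PHD2, the main hydroxylase of HIF alpha in most cells. Its values were 108, 94.4, 160, 263, 83.4 and 242 CPM in benign samples 1 to 6 and 77.2, 69.0, 63.9, 51.8, 99.1 and 55.0 CPM in tumors 1 to 6. Benign samples 3, 4 and 6 were the highest, and tumor 5 alone lay above the lowest benign sample. The means were 159 ± 77.9 and 69.3 ± 17.3 CPM (n = 6 per group), a log2 fold change of -1.19 (SE 0.30, edgeR adjusted p = 0.0041). Without those 3 benign samples the log2 fold change was -0.42 with an interval from -0.84 to 0.01, and it no longer passed (edgeR adjusted p = 0.101). Egln2, which encodes the remaining member PHD1, had a log2 fold change of -0.15 (edgeR adjusted p = 0.29).

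Egln3 minus Egln1 in log2 CPM lay between -2.97 and -1.30 in benign tissue and between 2.42 and 3.92 in tumors, a difference of 5.70 (exact permutation test, two-sided, p = 0.00216). Egln3 alone did not overlap between the groups, so the p of this ratio adds no support of its own. Without benign samples 3, 4 and 6 the difference was 5.73, close to the value with them. Summing the 3 hydroxylases in CPM per kb, Egln3 made up 9.23% to 24.7% of the sum in benign tissue and 78.2% to 89.1% in tumors. Per kb, Egln2 was at 31.8 ± 5.53 in benign tissue and 28.7 ± 1.61 in tumors, Egln1 at 44.1 ± 21.7 and 19.3 ± 4.80, and Egln3 at 12.4 ± 6.90 and 280 ± 69.0 (n = 6 per group). The gene with the lowest level of the 3 in benign tissue was thus the highest in tumors.

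**Figure D2:**
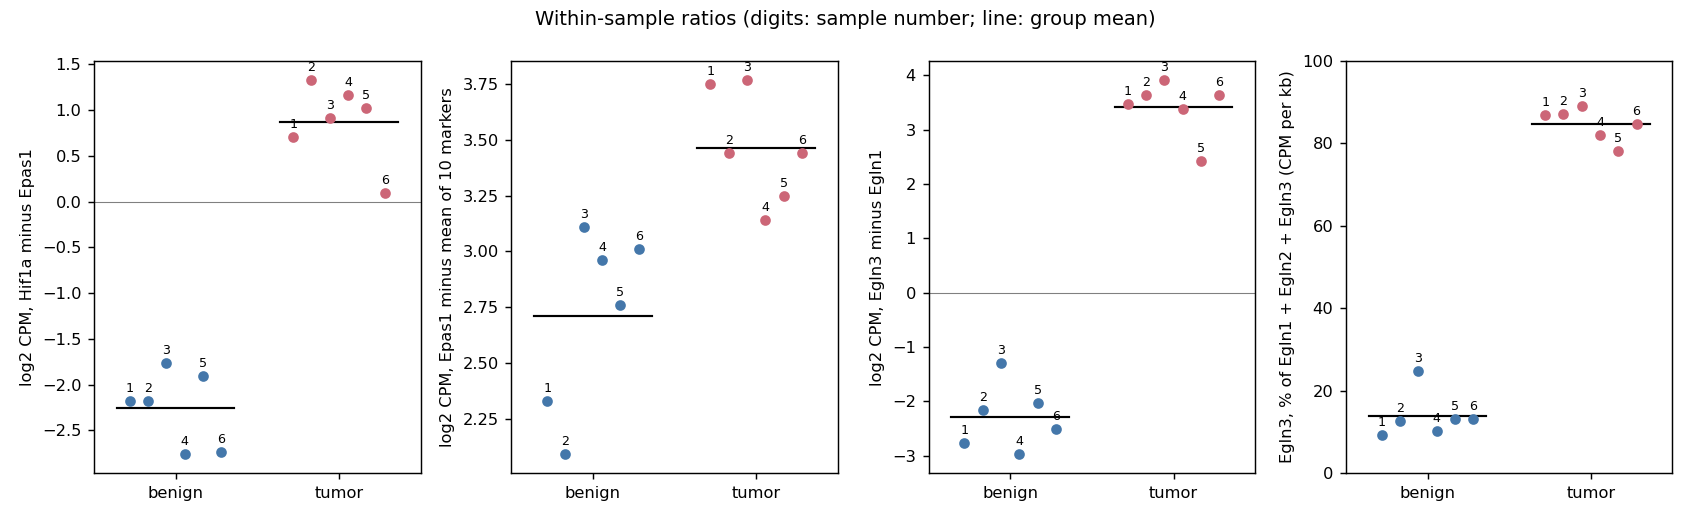
Ratios within each sample (points, with the sample number above; lines, group means): log2 CPM of Hif1a minus Epas1, of Epas1 minus the mean of 10 endothelial markers, and of Egln3 minus Egln1, and Egln3 as a percent of the 3 hydroxylases in CPM per kb. Benign samples and tumors do not overlap in any panel, with Egln3 at 9.23% to 24.7% in benign tissue and 78.2% to 89.1% in tumors.

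Car9 had the largest fitted log2 fold change of the 10 genes, and its size depends on few benign counts. Car9 (chr4:43506966-43513729) encodes carbonic anhydrase IX, a membrane enzyme that acidifies the space outside the cell and is used as a marker of hypoxia. Benign samples 1 to 6 held 6, 4, 5, 2, 8 and 2 counts, and tumors 1 to 6 held 202, 405, 431, 152, 147 and 263 counts. In CPM the benign samples lay between 0.355 and 1.11, and the tumors between 18.8 and 55.7. Benign samples 4 and 6, with 2 counts each, were under the floor of 3 counts (0.534 and 0.533 CPM in these libraries), and the other 4 were above theirs. No tumor came near the benign range. The log2 fold change was 5.67 with an interval from 4.80 to 6.53 (SE 0.40, edgeR adjusted p = 1.2e-07), and 5.38 without benign samples 3, 4 and 6 (edgeR adjusted p = 2.96e-05). When every gene with any count was kept, whatever the group, it was 5.75 (edgeR adjusted p = 1.4e-07). Even in tumors, Car9 reached only 15 ± 6.82 CPM per kb against 280 ± 69.0 for Egln3. The exons overlap those of Gm12454 on the opposite strand.

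The secreted members showed no difference between group means that passed the threshold. Vegfa (chr17:46016993-46032369) encodes the main growth factor for blood vessels. It was measured at 172, 184, 172, 289, 139 and 283 CPM in benign samples 1 to 6 and at 194, 386, 207, 86.7, 375 and 116 CPM in tumors 1 to 6. Tumors 2 and 5 lay above every benign sample, tumors 4 and 6 below every one, and the other two within the range. The log2 fold change was 0.14 with an interval from -0.62 to 0.90 (edgeR adjusted p = 0.76). Without benign samples 3, 4 and 6 it was 0.49, with an interval from -0.50 to 1.49 (edgeR adjusted p = 0.391).

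Adm (chr7:110627661-110629820) encodes adrenomedullin, a peptide that widens vessels and acts on endothelium. Its benign values were 17.0, 13.3, 8.18, 9.26, 13.4 and 11.4 CPM in samples 1 to 6, and its tumor values 11.7, 12.5, 8.31, 2.43, 21.5 and 4.72 CPM. Tumor 5 was above the benign range and tumors 4 and 6 below it. The log2 fold change was -0.25 (interval -1.14 to 0.65, edgeR adjusted p = 0.64), and -0.47 without benign samples 3, 4 and 6. Both intervals, the second from -1.65 to 0.70, lie on both sides of 0.

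Most of the listed receptors of both ligands, and the ligands Vegfb, Vegfc and Vegfd, fell. Of the 13 genes of this list 12 were tested, and by edgeR 11 fell and 0 rose, with 0 higher and 11 lower also at an unadjusted p under 0.05 and by DESeq2. The median log2 fold change was -2.26 (-2.13 without benign samples 3, 4 and 6), and every tumor lay below every benign sample for the 11 genes. Across all genes tested, 34.8% fell and 21.2% had every tumor below every benign sample. Kdr, the main signalling receptor for VEGF-A, fell from 104 ± 19.2 to 21.6 ± 1.55 CPM (n = 6 per group, log2 fold change -2.27, edgeR adjusted p = 2.3e-08). Flt1, a receptor that also traps the ligand, fell by 2.30 on the log2 scale (edgeR adjusted p = 5.5e-07). Of the adrenomedullin receptor parts, Calcrl fell by 1.86 on the log2 scale and its partner Ramp2 fell by 4.22 (edgeR adjusted p = 9.5e-05 and 8.1e-09). Vegfd, a ligand of lymphatic vessels, fell by 4.28, and Ackr3, a scavenging receptor, by 2.84 (edgeR adjusted p = 3.4e-06 and 1.3e-05). Most of these receptors are made by endothelial cells, whose 10 markers fell by a median of 3.36 on the same scale, and the part of endothelial content was not tested. Ramp1 had a log2 fold change of 0.41 (edgeR adjusted p = 0.60), and Ramp3 was not tested at 1.38 ± 1.32 and 0.775 ± 0.282 CPM. Pgf, a further ligand of Flt1, stood in another list and rose by 2.85 on the log2 scale (edgeR adjusted p = 7.5e-05).

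Ndrg1 (chr15:66929318-66969640) encodes a stress-responsive protein of differentiating epithelium that is raised by hypoxia in many cells. It was measured at 117, 163, 121, 154, 142 and 155 CPM in benign samples 1 to 6 and at 31.4, 186, 116, 38.2, 164 and 28.3 CPM in tumors 1 to 6. Tumors 2 and 5 lay above the benign range and the other 4 below it, with tumor 3 close to its lower end. The coefficient of variation was 75.6% among tumors and 13.2% among benign samples, and the highest tumor was 6.59 times the lowest. The log2 fold change of -0.60 had an interval from -1.56 to 0.37 (edgeR adjusted p = 0.27), and it was -0.55 without benign samples 3, 4 and 6. A single mean thus describes the tumors poorly for this gene. Exons overlap Gm17035 and Gm2895 on the opposite strand.

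Bnip3 (chr7:138890836-138909519) encodes a mitochondrial outer membrane protein that recruits the autophagy machinery. Benign samples 1 to 6 were at 198, 301, 245, 438, 237 and 555 CPM, and tumors 1 to 6 at 43.7, 94.9, 59.9, 46.3, 83.4 and 48.1 CPM. The groups did not overlap, and benign samples 4 and 6 were again the highest. Bnip3 fell from 329 ± 139 to 62.7 ± 21.5 CPM (n = 6 per group), 5.24-fold lower, with a log2 fold change of -2.39 (SE 0.30, edgeR adjusted p = 1.9e-05). It was -1.94 without benign samples 3, 4 and 6 (edgeR adjusted p = 0.000209). Its close relative Bnip3l, which has the same role, did not pass the threshold, at 157 ± 22.7 and 156 ± 43.9 CPM (n = 6 per group, log2 fold change -0.01, edgeR adjusted p = 0.96). Per kb, Bnip3 lay above Bnip3l in benign tissue (145 ± 61.3 against 40.7 ± 5.89) and below it in tumors (27.7 ± 9.50 against 40.4 ± 11.4). An antisense gene, Gm45507, shares exons with Bnip3.

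Ankrd37 (chr8:45996902-46005707) encodes a small ankyrin repeat protein known as a direct HIF target. Counts in benign samples 1 to 6 were 22, 11, 4, 6, 5 and 14, or 4.08, 1.31, 0.528, 1.07, 0.624 and 2.49 CPM. Tumors 1 to 6 were at 4.83, 12, 4.81, 3.51, 7.54 and 4.72 CPM, and 5 of them lay above the highest benign sample, benign sample 1. Ankrd37 rose from 1.68 ± 1.37 to 6.23 ± 3.11 CPM (n = 6 per group), with a log2 fold change of 1.91 (SE 0.49, edgeR adjusted p = 0.0051) and of 1.73 without benign samples 3, 4 and 6 (edgeR adjusted p = 0.0377). Its annotated exons overlap Lrp2bp and Ufsp2 on the other strand, and whether reads of these genes were counted for Ankrd37 was not tested.

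**Figure D3:**
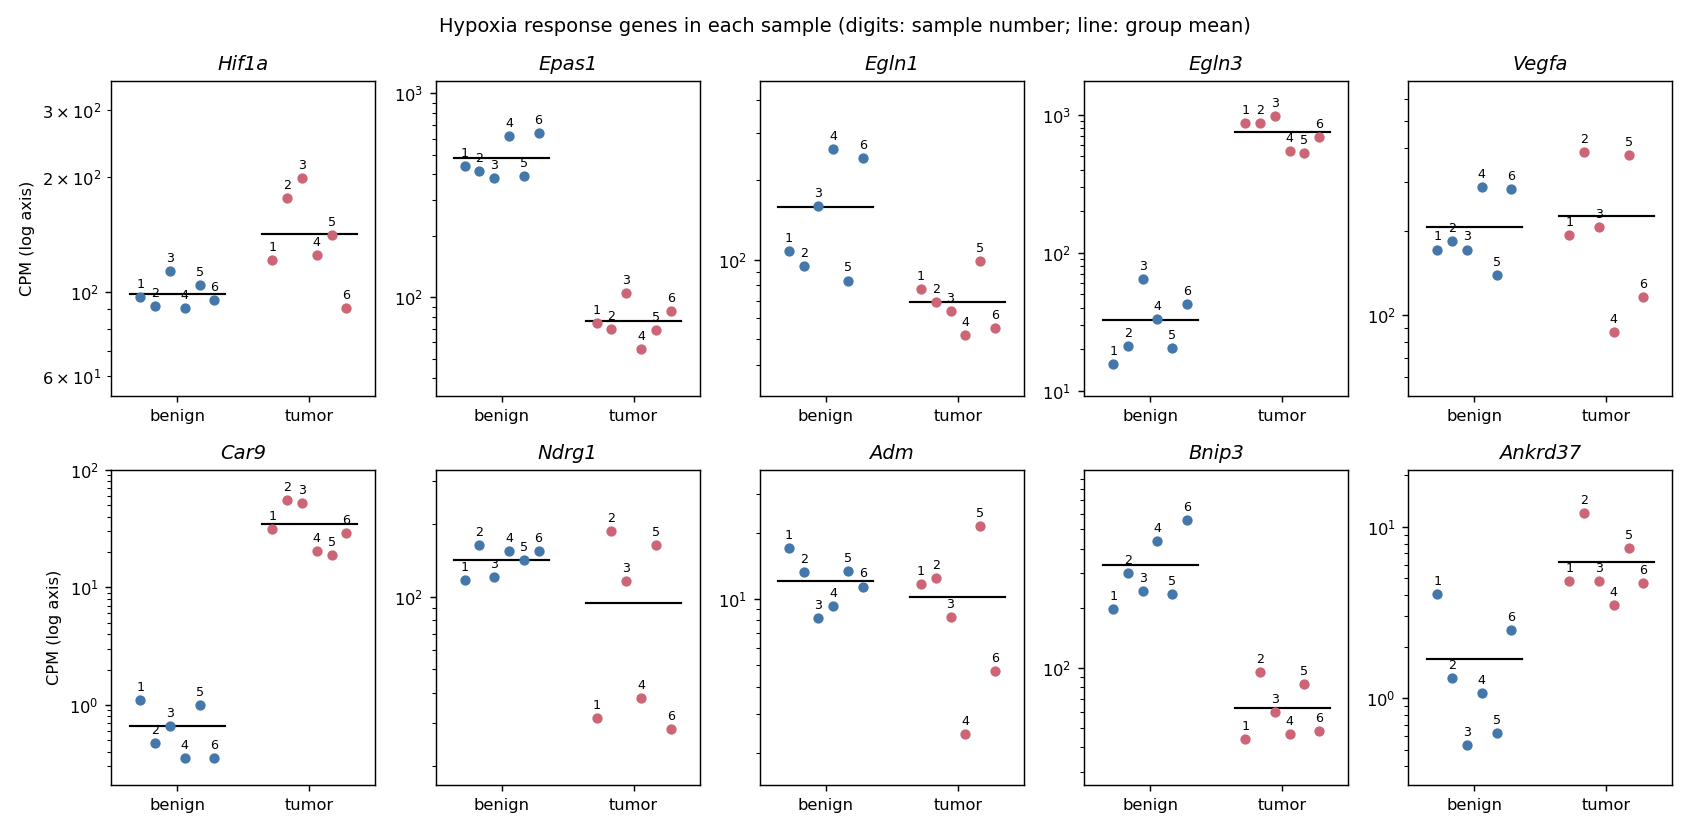
CPM of each gene (y axes, log scale) in the 6 benign samples and the 6 tumors; each point is a sample with its number and the line is the group mean. Egln3 and Car9 lie above and Epas1 and Bnip3 below the benign samples in every tumor, while Vegfa, Ndrg1 and Adm have tumors on both sides of the benign range.

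The tumors differed from each other, and not in the same order for all genes. Tumors 2 and 5 held the 2 highest tumor values of 5 of the 10 genes, namely Vegfa, Ndrg1, Adm, Bnip3 and Ankrd37. Tumor 4 was the lowest for Epas1, Egln1, Vegfa, Adm and Ankrd37. Egln3 did not follow, with its highest value in tumor 3 and its lowest in tumor 5, and Car9 was highest in tumors 2 and 3 and lowest in tumor 5. Among the other HIF targets listed, tumors 2 and 5 were the 2 highest for 22 of 57 (38.6%), beside 1123 of the 13191 genes tested (8.51%). This pair of tumors was picked after the values were seen, so these shares are a description without a test. In tumors 2 and 5, endothelial markers summed to 104 and 106 CPM (85.0 to 108 in all tumors) and macrophage markers to 441 and 215 CPM (215 to 485). Skeletal muscle markers summed to 131 CPM in tumor 5, against 1.08 to 9.31 CPM in the other tumors. Epithelial sums were the highest of the 6 tumors in tumors 2 and 5, at 4135 and 4416 CPM, but not marker by marker. The other tumors lay at 2666 to 4033 CPM, and tumor 4, at 4033 CPM, was close to tumor 2. In tumor 5 the sum was led by Krt18 (1526 CPM) and Krt8 (968 CPM), while Cldn3 (344 CPM) was the lowest of the 6. The part of cell content was not tested.

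**Figure D4:**
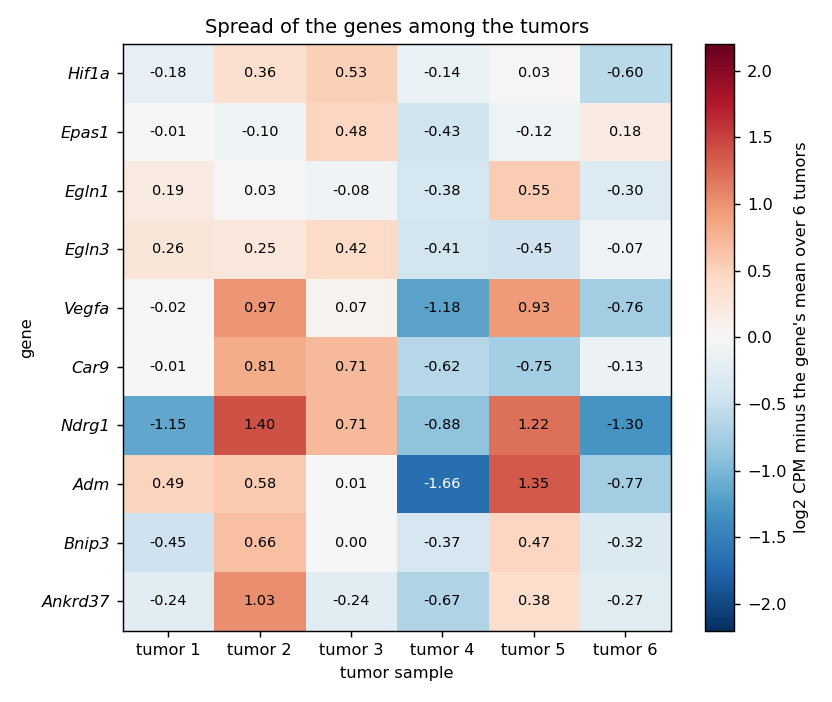
Log2 CPM of each gene (rows) in each of the 6 tumors (columns) minus the gene's mean over the tumors, as colour and number. Tumors 2 and 5 are high for Vegfa (0.97 and 0.93) and Ndrg1 (1.40 and 1.22), whereas Car9 is 0.81 in tumor 2 and -0.75 in tumor 5.

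Over the 45 pairs of genes within the 6 tumors, 40 correlations of log2 CPM were positive with a median Pearson r of 0.47, beside 23 positive and a median of 0.07 in the 6 benign samples. By exact permutation 9 tumor pairs and 5 benign pairs had an unadjusted p under 0.05, and 0 in each group passed after Benjamini-Hochberg adjustment over 45 pairs (lowest adjusted p = 0.125). Vegfa and Adm gave r = 0.93 over the tumors (exact permutation p = 0.0111, adjusted p = 0.156; Spearman's rho 0.89, p = 0.0333), and r = 0.96 without the 2 tumors farthest from the median of Vegfa. Ndrg1 and Bnip3, of which only Bnip3 passed between the groups, gave r = 0.94 (exact permutation p = 0.0139, adjusted p = 0.156, rho 0.83) and 0.93 without 2 tumors. Egln3 and Car9 gave r = 0.91 (exact permutation p = 0.0194, adjusted p = 0.175, rho 0.83), but 0.71 without 2 tumors. The lowest p in tumors was that of Egln1 with Adm and of Vegfa with Ankrd37. These gave r = 0.94 and 0.89 (exact permutation p = 0.00556 and adjusted p = 0.125 for each). Less stable was Bnip3 with Ankrd37, at r = 0.91 but 0.30 without 2 tumors. None of these pairs passed after adjustment, but the adjustment could hardly let one pass. In benign tissue Car9 and Bnip3 ran in exactly opposite rank order, the most extreme order that 6 samples can give. Car9 held only 6, 4, 5, 2, 8 and 2 counts in benign samples 1 to 6. Benign samples 4 and 6 had equal counts and were ordered by library scaling alone (0.356 and 0.355 CPM). This order thus rests on very few counts. The exact permutation p of the pair was 0.00278, and 0.125 after adjustment over the 45 pairs. A single pair standing alone could thus not pass, so the adjusted values cannot decide whether any of these pairs vary together.

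Of the wider HIF machinery, Cited2 had the largest log2 fold change among the genes tested. Of 16 listed partners, hydroxylases, ligase parts and coactivators 15 were tested, and 5 rose, 3 fell and 7 did not pass, with a median log2 fold change of 0.13 (5 higher, 2 lower and a median of 0.17 without benign samples 3, 4 and 6). The shares with all samples were 33.3% higher and 20.0% lower, beside 28.2% and 34.8% of all genes tested. Cited2, a target of HIF that competes with it for the coactivators, rose from 56.9 ± 7.07 to 327 ± 89.0 CPM (n = 6 per group, log2 fold change 2.52, edgeR adjusted p = 8.3e-08). Ep300, the coactivator itself, rose by 0.96 and Os9, a lectin of protein quality control, by 0.73 (edgeR adjusted p = 0.00025 and 0.00026). Vhl, the substrate receptor of the ligase, was at 30.4 ± 6.17 and 29.4 ± 5.78 CPM (edgeR adjusted p = 0.82). Its adaptors Eloc and Elob fell by 0.62 and 0.48 on the log2 scale (-0.30 and -0.35 without benign samples 3, 4 and 6), and the scaffold Cul2 by 0.36 (edgeR adjusted p = 0.0027, 0.00077 and 0.038). Cul2 lost its call without any 1 of tumors 2 to 6, and was at -0.03 without benign samples 3, 4 and 6. Hif1an, the asparaginyl hydroxylase that blocks coactivator binding, had a log2 fold change of 0.20 (edgeR adjusted p = 0.48), but rose by 0.80 without those 3 samples (edgeR adjusted p = 0.000547) and by 0.41 without benign sample 6 alone (edgeR adjusted p = 0.071). Hif3a was not tested, its means being 3.05 ± 1.60 (benign) and 0.253 ± 0.228 CPM (tumor), 12-fold lower, with every tumor below every benign sample.

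The counts for glycolytic targets depended on benign samples 3, 4 and 6, which hold muscle and, in 4 and 6, brown fat transcripts. With all benign samples, 6 of 19 rose, 4 fell and 9 did not pass, with a median of 0.03. The shares were 31.6% higher and 21.1% lower, beside 28.2% and 34.8% of all genes tested. Without benign samples 3, 4 and 6, all 19 passed, 15 higher and 4 lower, with a median of 1.04. In that fit 26.7% of all genes were higher and 28.7% lower. Skeletal muscle is rich in glycolytic enzymes, but the part of muscle or brown fat content in this shift was not tested. Aldoa, an aldolase, was at 5922, 7182 and 11095 CPM in the samples with muscle transcripts. It was at 1263 to 1358 CPM in the other benign samples, against 2191 to 4316 CPM in tumors. The lactate exporter Slc16a3 went from -1.74, not passing, to 2.19 when they were left out (edgeR adjusted p = 0.13 and 0.0234). DESeq2 with all samples called it lower, at -1.72 (DESeq2 adjusted p = 0.08). Both genes were chosen after their values were seen. Gapdh and several other enzymes of this list have near-identical pseudogenes, so their counts are uncertain.

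Several glycolytic genes moved with either set of benign samples. Aldoc, the brain-type aldolase, rose from 58.5 ± 18.5 to 1108 ± 569 CPM (n = 6 per group, log2 fold change 4.24, edgeR adjusted p = 8.8e-07). Hk1 rose by 2.80 and the glucose transporter Slc2a1 by 2.03 (edgeR adjusted p = 2.8e-08 and 1.7e-05). Against that direction, the HIF-responsive hexokinase Hk2 fell by 2.93, the transporter Slc2a3 by 3.10 and Pfkfb3, which makes the activator of phosphofructokinase, by 2.99 on the log2 scale (edgeR adjusted p = 0.00013, 0.00014 and 9.4e-05). Hk2 fell by 1.55 without benign samples 3, 4 and 6 (edgeR adjusted p = 4.04e-05), so the hexokinases moved apart under both settings. Pfkfb3 fell by 2.39 without them.

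Of 38 other targets 18 rose, 13 fell and 7 did not pass, with a median of 0.07 (17 higher and 10 lower without benign samples 3, 4 and 6, median 0.26). The shares with all samples were 47.4% higher and 34.2% lower, beside 28.2% and 34.8% of all genes tested. Car12, the carbonic anhydrase most like Car9 in its place on the cell surface, rose from 4.77 ± 2.58 to 758 ± 239 CPM (n = 6 per group, log2 fold change 7.29, edgeR adjusted p = 2.9e-08). The tumors lay between 521 and 1196 CPM and the benign samples between 1.60 and 8.37 CPM. Hmox1, the heme-degrading enzyme, rose by 2.05 (edgeR adjusted p = 0.0024). Tumors 4 and 5, at 33.7 and 34.3 CPM of Hmox1, lay within its benign range of 26.5 to 46.2 CPM. Pgf is described with the VEGF receptors. Angptl4, a lipase inhibitor made by fat tissue and raised by both fasting and hypoxia, fell by 4.65, and the secreted glycoprotein Stc2 by 2.97 on the log2 scale (edgeR adjusted p = 5.9e-08 and 0.0003), and Stc2 fell by 2.34 without benign samples 3, 4 and 6. Ppp1r3c, which targets a phosphatase to glycogen, fell by 2.93 (edgeR adjusted p = 0.0066), but was at -0.09 without benign samples 3, 4 and 6. All 10 white adipocyte markers fell, and the part of fat content in these falls was not tested.

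**Figure D5:**
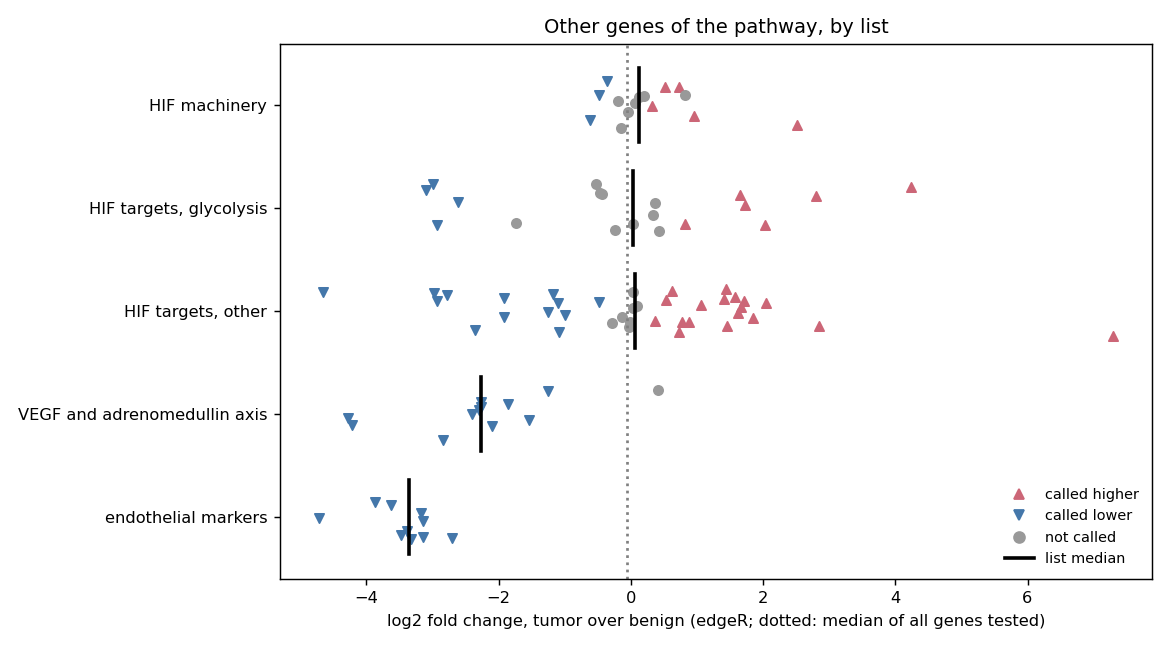
Log2 fold change, tumor over benign, of each tested gene (x axis) in 4 lists of HIF pathway genes and in the endothelial markers (rows); upward triangles rose, downward triangles fell, circles did not pass, black bars are list medians and the dotted line is the median of all genes tested. The VEGF and adrenomedullin axis has its median at -2.26 and the endothelial markers at -3.36, while the other 3 lists lie on both sides of 0.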

How the data were processed

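Poly A RNA of 6 tumors and 6 benign samples was sequenced from directional libraries. The authors trimmed the reads and ran Salmon on them. The deposited values are estimated counts, 1 whole number per gene and sample, without any scaling. The build named is mm10 (submitters' processing notes), and tool versions and the strand setting are not given in the sources used here. Estimated counts can be split between near-identical genes. Groups came from the sample labels.

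Low genes were dropped by filterByExpr (count of 10, total of 15), counts were scaled by TMM, and groups were compared with edgeR 4.0.16 (R 4.3.3; quasi-likelihood, two-sided), with Benjamini-Hochberg adjustment over 13191 genes and a threshold of 0.1. Intervals are 95%. Log2 CPM used a prior count of 2. Replicates differed by more than counting noise (smallest chi-square per degree of freedom 12.5). Ratios within samples were compared by exact permutation over 924 regroupings (scipy 1.17.1). Coordinates and exon lengths are those of GENCODE M21 (GRCm38), and promoters those of RefSeq.

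The 10 genes and the pathway and marker lists were chosen with earlier results of these data known. Other genes named are, in each list, the 3 that rose most and the 3 that fell most among those called with a mean of at least 10 CPM in the higher group, and direct partners of the 10 genes. Alternatives were DESeq2 1.42.0, other scalings and filters, a threshold of 0.05, a replicate block, leaving out each sample, and leaving out benign samples 3, 4 and 6.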

Additional observations from a re-analysis of the deposited data

Results flagged for a closer look

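Of 116 groups of 6 samples examined for the 58 genes and ratios whose values the text compares, 7 held a sample far from the other 5 by Dixon's test (gap over range above 0.625), which chance alone gives in about 1 of 20 groups. Tumor 5 had 506 CPM of Cited2, with the next tumor at 320 CPM, and 46.4 CPM of Stc2, with the next at 22.3 CPM. The log2 ratio of Egln3 to Egln1 was 2.42 in tumor 5, below the next tumor at 3.39. Benign sample 6 had 80.1 CPM of Hk1, below the next benign sample at 133 CPM. Benign sample 4 had 411 CPM of Pfkfb3, above the next at 228 CPM. Tumor 5 had 1106 CPM of Gapdh, with the next tumor at 500 CPM, and benign sample 5 had 135 CPM of Loxl2, with the next benign sample at 63.3 CPM.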

How the results depend on the processing

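The counts of 4 genes higher and 3 lower were found in each of the 12 fits that left out 1 sample, and by DESeq2, other scalings and a threshold of 0.05. Requiring at least 10 counts in every sample gave 2 higher, since Car9 and Ankrd37 were then not tested. Glycolytic targets called higher numbered 15 in place of 6 without benign samples 3, 4 and 6, where Aldoa (1.38), Slc16a3 (2.19) and Gapdh (0.86) turned from below 0 to called higher. The groups came from different mice, and the replicate numbers did not pair them: 1 of 6 same-number pairs correlated above 0.1 (-0.124 to 0.103). With the numbers as a replicate block, 4 of the 10 genes were higher and 4 lower, Ndrg1 passing at -0.99 (edgeR adjusted p = 0.092), and Ppp1r3c no longer passed. The cause was not tested. Over all genes DESeq2 called 4268 higher and 5343 lower. Scaling to total counts moved the median of all genes from -0.06 to 0.03. Depth limits Car9 and Ankrd37 in benign tissue, where counts were 2 to 22.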

Other observations

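Targets that act on collagen and glycogen, grouped after their values were seen, did not move as one. The lysyl hydroxylase Plod2 rose by 1.67 on the log2 scale (edgeR adjusted p = 3.1e-05) and Plod1 by 0.63 (edgeR adjusted p = 0.012), and they were at 1.92 and 0.68 without benign samples 3, 4 and 6. The prolyl 4-hydroxylase subunit P4ha2 fell by 2.78, and the collagen crosslinking enzymes Loxl2 and Lox fell by 1.92 and 0.99 (edgeR adjusted p = 7.1e-05, 0.00024 and 0.0079), and they were at -2.27, -2.24 and -1.23 without benign samples 3, 4 and 6. Fibroblast markers fell in 6 of 6 cases, from 4135 to 10541 summed CPM in benign tissue to 368 to 883 in tumors, and their part was not tested. Of the glycogen enzymes, the branching enzyme Gbe1 fell by 2.36 and by 1.72 without benign samples 3, 4 and 6 (edgeR adjusted p = 8.2e-06 and 1.76e-06). The synthase Gys1 fell by 1.25 (edgeR adjusted p = 0.01), but was at -0.11 without those samples.

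The genes whose log2 CPM followed 3 of the hypoxia genes most closely over all 12 samples, which fall into 2 groups, are given as a description. For Epas1 these were Lims2, Car4 and Ppp1r3d (Pearson r 0.996, 0.994 and 0.994). For Hif1a they were Megf6, Trip6 and Nes (0.942, 0.917 and 0.914), and for Vegfa, which did not separate the groups, Slc45a4, Mafg and Swt1 (0.889, 0.868 and 0.860).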
